A study of Mus musculus with 24 samples.

Results

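Multipotent progenitors labelled MPP1 were compared between KO-labelled and wild-type (WT) mice across all genes. The 6 libraries were chosen by their labels, 3 KO-labelled MPP1 and 3 WT MPP1, out of 24 libraries in the series. The other 18 libraries held haematopoietic stem cells (HSC) and progenitors labelled MPP2 and MPP4, with 3 libraries for each genotype and population. The cells had been sorted from mouse bone marrow, although the tissue field names blood, and tamoxifen is given as the treatment of all 24 samples, the WT ones included. The labels name neither the deleted gene nor the allele, the Cre driver, the strain, the sex, the age, the tamoxifen dose or the sorting gates. Nor do they say if the libraries within a group stem from separate animals, and the p-values below therefore reflect the scatter among these libraries, which could be technical.

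Multipotent progenitors lie between the stem cell and the first committed blood progenitors. They already transcribe, at low levels, genes of several fates at once, such as globins and the erythropoietin receptor of red cells, myeloperoxidase of granulocytes, and the interleukin 7 receptor and terminal transferase of lymphocytes, a state known as lineage priming. The title of the series is about P-bodies, cytoplasmic granules in which untranslated mRNA is held. Their assembly needs the DEAD-box RNA helicase Ddx6, which is taken here as the deleted gene from general knowledge of the study and not from the labels.

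Ddx6 was not lower in the KO-labelled libraries. Its level, in CPM (counts scaled to a common library total), was 68.7, 43.7 and 62.6 in the WT MPP1 libraries and 99.4, 87.9 and 79.3 in the KO-labelled ones, so the groups did not overlap and the KO-labelled libraries were the higher. The log2 fold change was 0.61 ± 0.19 (SE, n = 3 against 3) with an adjusted p of 0.0211 in edgeR's quasi-likelihood test. The adjusted p was 0.0637 under median-of-ratios scaling, 0.281 once background was subtracted, 0.205 with WT replicate 2 left out, and 0.11 and 0.0558 with the first or the second KO-labelled library left out, so the call did not hold in those fits. A count over the whole gene cannot show a deleted exon, so the labels are neither met nor contradicted by this gene, and "KO-labelled" is kept throughout.

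The 6 libraries held 3095384 to 3584413 counts each. Counts of 29660 ± 748 genes (SD, n = 3) were detected per WT library and of 25630 ± 328 per KO-labelled library. Olfactory and vomeronasal receptor genes, which blood cells do not use, carried counts in all libraries. Their density per length of gene, taken as an even background over all genes, would account for 24.4 ± 0.903% of the counts of a WT library and 13.96 ± 0.289% of a KO-labelled one. This background share moved with the genotype, so the counts of genes called in MPP1 are also given after the background was subtracted, and its part in the other results was not tested. Pearson's r of log2 CPM over 8389 genes was 0.947 to 0.964 between libraries of a group and 0.843 to 0.861 between the groups.

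The sorting genes were read against the label in all populations. Flt3, a receptor tyrosine kinase that marks progenitors leaving the stem cell state, was at 62.9 ± 8.73 CPM in WT HSC (SD, n = 3) and at 422 ± 19.95 in WT MPP1. Slamf1, which encodes the stem cell marker CD150, was at 72.3 ± 3.41 CPM in WT HSC and at 3.8, 20.1 and 5.01 in the WT MPP1 libraries. MPP1 therefore carried the transcripts of Flt3-expressing cells with little Slamf1. The name MPP1 has been used with more than one gate, and no gate is given here, so MPP1 too is used as a label only throughout. In the MPP2-labelled WT libraries Flt3 was at 1131 ± 51.5 CPM and in the MPP4-labelled ones at 64.5 ± 14.1, which is against the common use of these 2 names, so both are called by their label only. Between genotypes in MPP1, Ly6a, which encodes Sca-1, rose from 30.4, 42.2 and 33.1 to 103, 97.0 and 86.0 CPM, by 1.43 ± 0.23 (adjusted p = 1.16e-05). Kit and Flt3 were both called higher, by 0.45 on the log2 scale each, and both calls were lost after background subtraction (adjusted p = 0.326 and 0.671). Slamf1 was not called (log2 fold change of -1.07 ± 0.46, adjusted p = 0.1249). It was called lower with no filter on low counts (adjusted p = 0.00871), among genes of at least 20 CPM (0.0398), without WT replicate 1 (0.0322) and without KO-labelled replicate 1 (0.048). Without WT replicate 2 its log2 fold change was 0.044 and was not called (adjusted p = 0.9775). Of the 10 sorting genes tested, 4 were called higher and 3 lower (40% and 30%, against 8.71% and 4.9% of all genes). After subtraction 1 was called in each direction. Without WT replicate 2, or without KO-labelled replicate 3, no sorting gene was called lower, and with any other library but KO-labelled replicate 1 left out there was 1.

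Across all genes, 1912 of 21964 tested were called higher in KO-labelled MPP1 (8.71%) and 1076 lower (4.9%) by edgeR's quasi-likelihood test at an adjusted p below 0.05. In 2923 of the 2988 called genes the 3 KO-labelled libraries did not overlap the 3 WT ones. Over all tested genes, 17.3% lay without overlap above and 17.8% below. After background subtraction 629 of 18832 genes were called higher (3.34%) and 507 lower (2.69%). Of the first set of calls, 623 rises and 381 falls were also called after subtraction, 0 in the opposite direction, and 80 called genes could not be tested there. Changes of at least 2-fold were found in 557 of the called rises and in 630 of the called falls. The median log2 fold change of all tested genes was -0.10. The share of rises among the calls was 64%, against 52.2% with median-of-ratios size factors, 49.5% with DESeq2, 54.2% with only the 6 libraries in the fit, 55.4% after subtraction and 38.2% among genes of at least 20 CPM. Relative to the fit of all genes, the fold changes of the genes in common moved by a median of -0.096 with median-of-ratios size factors, -0.229 after subtraction and -0.223 with the 20 CPM filter, on whose genes the scaling was estimated anew. With the scaling of all genes kept, the share among genes of at least 20 CPM was 66.8%, so the lower share there came with the scaling. Counts given below for genes of at least 20 CPM include this shift. The plot of fold change against level shows rises and falls at all levels above about that of background, with Mpo, Car1, Hbb-bs, Jun and Egr1 as abundant falls and Ighv7-1, Ccl9, Ighm and Il7r as large rises.

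**Figure D1:**
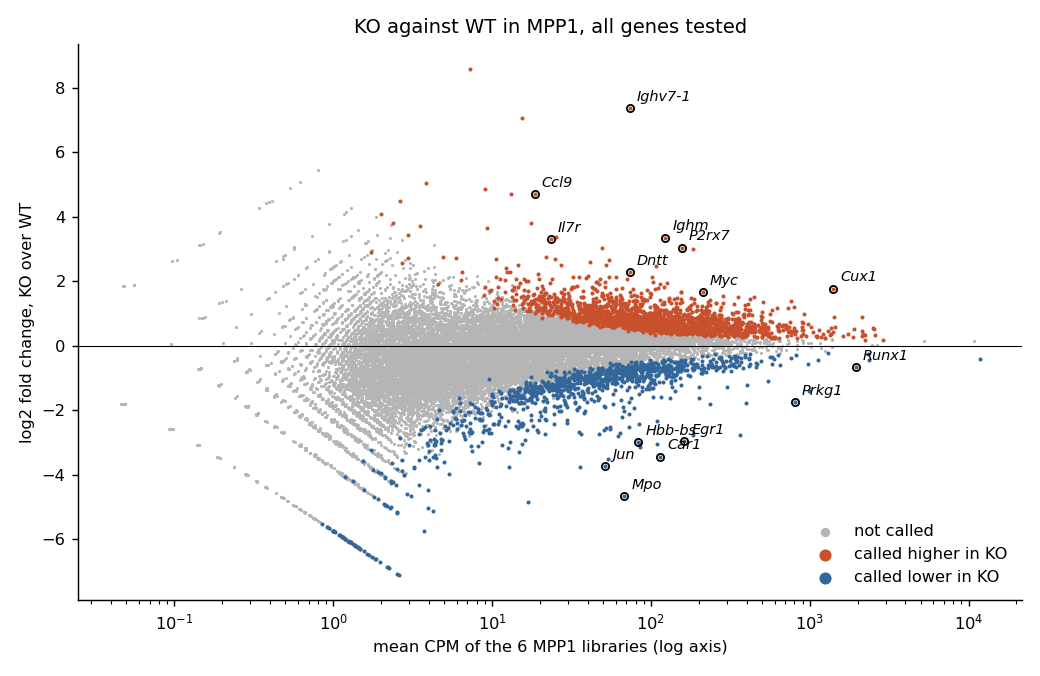
Log2 fold change of KO-labelled over WT MPP1 (vertical axis) against mean CPM of the 6 libraries (horizontal, log axis) for the 21964 genes tested, with the 1912 called higher in orange, the 1076 called lower in blue and named genes ringed. Mpo lies at -4.67 and Ighv7-1 at 7.36.

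Genes of red cell formation fell in KO-labelled MPP1. Of 31 erythroid genes listed, 30 were in the table and 28 were tested. Of these, 22 fell (78.6%, against 4.9% of all genes), 0 rose and 6 were not called. The median log2 fold change was -2.58, against -0.10 for all tested genes. After subtraction 19 of 28 fell, and leaving out any of the 6 libraries gave 22 or 23 falls. Summed over the list, WT libraries ranged from 2197 to 2255 CPM and KO-labelled ones from 457 to 489. In these bulk samples, fewer cells of a type and less RNA per cell cannot be told apart.

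The globins, which form haemoglobin, carried some of the largest falls. Hbb-bs, the adult beta globin, was at 152, 144 and 149 CPM in WT and at 20.3, 19.98 and 15.98 in KO-labelled libraries. Every KO-labelled value was far below every WT value, and the log2 fold change was -2.98 ± 0.18 (SE, n = 3 against 3, adjusted p = 2.1e-16). Hba-a1, an adult alpha globin, was at 97.9, 98.1 and 101 CPM against 9.30, 8.85 and 7.85, a fall by 3.51 ± 0.29 on the log2 scale (adjusted p = 1.38e-12). Its near-identical copy Hba-a2 fell by 3.78 ± 0.51 (adjusted p = 3.25e-07). The split of reads between the copies is uncertain, as it is between Hbb-bs and Hbb-bt, of which Hbb-bt, chosen after its values were seen, was not called (-1.57 ± 0.65, adjusted p = 0.106, and 0.0194 with DESeq2). Summed, the globins were at 275.5 to 286.6 CPM in the WT group and 29.9 to 36.0 CPM in the KO-labelled group.

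Genes of the red cell membrane and of its gas and ion transport fell with the globins. Car1, a carbonic anhydrase of early erythroid cells, was at 220, 188 and 218 CPM in WT and 22.3, 20.3 and 15.1 in KO-labelled libraries, a log2 fold change of -3.44 ± 0.20 (adjusted p = 3.69e-17). Slc4a1, the band 3 anion exchanger, was at 97.9, 114 and 115 CPM against 24.3, 10.3 and 12.8 (-2.80 ± 0.22, adjusted p = 3.21e-13). KO-labelled replicate 1 was the highest of its group for both genes and still lay under every WT library. Ermap, a blood group protein of the red cell surface, went from 183, 197 and 203 CPM to 26.6, 23.4 and 20.1 (-3.06 ± 0.28, adjusted p = 2.87e-11). Ank1, which anchors band 3 to the membrane skeleton and was chosen after its values were seen, was at 347, 322 and 299 CPM against 39.5, 44.2 and 57.2 (-2.77 ± 0.23, adjusted p = 3.76e-12).

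The receptor and the transcription factor that erythroid cells depend on were lower too. Epor, the erythropoietin receptor, was at 19.6, 27.8 and 20.9 CPM in WT and 1.99, 3.71 and 1.74 in KO-labelled MPP1, a log2 fold change of -3.17 ± 0.56 (adjusted p = 5.26e-05). Gata1, the master regulator of the lineage, chosen after its values were seen, was at 24.3, 21.3 and 23.7 CPM against 4.65, 0.571 and 3.49 (-3.00 ± 0.53, adjusted p = 4.76e-05). The groups were apart for both, and Epor was named by a rule that required this. Klf1, another erythroid regulator chosen after its values were seen, was at 11.1, 22.7 and 13.4 CPM against 5.98, 2.57 and 2.03 and was not called (-2.15 ± 0.77, adjusted p = 0.0563), though DESeq2 called it (adjusted p = 0.0219).

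Promoters of erythroid genes are shown here because these genes moved together and because Gata1, whose protein binds GATA motifs, was among them. The sequences are RefSeq's for build GRCm38.p6, 250 bases upstream of the annotated start, read 5′ to 3′ on the strand of the gene. RefSeq promoters were matched for 16 of the 22 erythroid genes called lower. Capitals mark the letters AGATAA or TGATAA on either strand, so that TTATCT and TTATCA are the same motifs read on the opposite strand. In Hbb-bs they also mark the CACCC box CCACACCC, a motif bound by Klf-type factors. The windows lie at chr7:103827929-103828178 on the minus strand for Hbb-bs, chr11:32283422-32283671 on the plus strand for Hba-a1, chr9:21963577-21963826 on the minus strand for Epor and chr4:119189996-119190245 on the minus strand for Ermap.
Hbb-bs: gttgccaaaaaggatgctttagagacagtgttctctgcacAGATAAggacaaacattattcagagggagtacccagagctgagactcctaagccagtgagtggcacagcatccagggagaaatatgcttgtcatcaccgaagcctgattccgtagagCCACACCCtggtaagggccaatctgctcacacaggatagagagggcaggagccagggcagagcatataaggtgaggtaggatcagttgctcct
Hba-a1: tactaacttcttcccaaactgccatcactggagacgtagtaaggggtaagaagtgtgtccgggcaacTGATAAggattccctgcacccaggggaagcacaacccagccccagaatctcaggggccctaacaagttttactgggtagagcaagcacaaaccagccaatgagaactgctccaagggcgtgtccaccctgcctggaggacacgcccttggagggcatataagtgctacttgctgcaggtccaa
Epor: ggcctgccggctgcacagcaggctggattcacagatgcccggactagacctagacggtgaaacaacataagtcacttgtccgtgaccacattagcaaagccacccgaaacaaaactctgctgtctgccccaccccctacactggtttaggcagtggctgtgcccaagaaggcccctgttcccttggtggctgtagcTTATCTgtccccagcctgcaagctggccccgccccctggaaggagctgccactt
Ermap: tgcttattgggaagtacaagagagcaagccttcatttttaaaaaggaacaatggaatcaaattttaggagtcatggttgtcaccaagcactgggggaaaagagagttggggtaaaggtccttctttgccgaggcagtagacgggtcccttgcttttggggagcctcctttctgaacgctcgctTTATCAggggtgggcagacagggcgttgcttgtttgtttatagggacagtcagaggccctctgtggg
The GATA letters were in 9 of the 16 promoters (Epor, Ermap, Gfi1b, Hba-a1, Hba-a2, Hbb-bs, Hemgn, Rhag and Rhd) and in 18.84% of the 27025 promoters of all genes. The near-identical Hba-a1 and Hba-a2 both count among the 9. The CACCC box was in 1 of the 16 and in 3.68% of all promoters. A match describes the letters only and shows no binding.

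**Figure D2:**
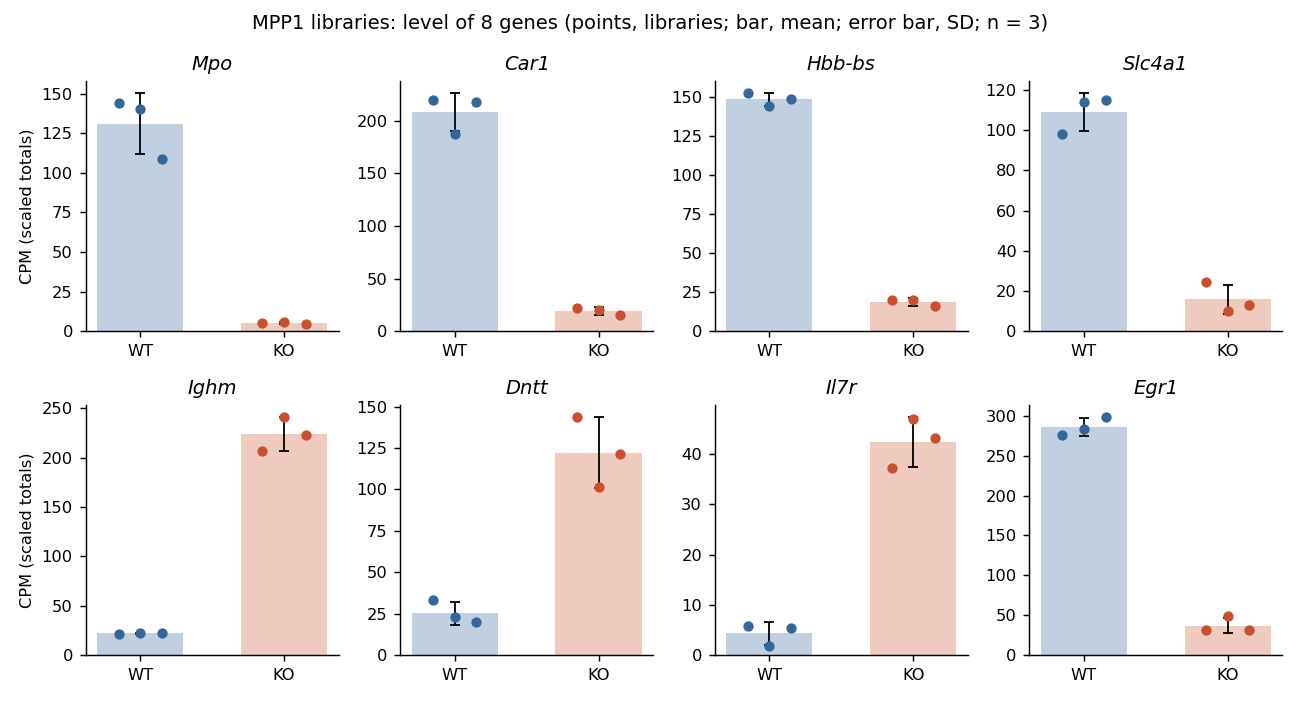
CPM (vertical axes, from 0) of Mpo, Car1, Hbb-bs, Slc4a1, Ighm, Dntt, Il7r and Egr1 in the 3 WT and 3 KO-labelled MPP1 libraries, with points for libraries, bars for means and error bars for SD. The 2 groups do not overlap for any of the 8 genes: Mpo, Car1, Hbb-bs, Slc4a1 and Egr1 are lower and Ighm, Dntt and Il7r higher in KO-labelled MPP1. Mpo, Car1, Ighm and Il7r also met a naming rule that required this. Over all tested genes, 17.3% lay without overlap above and 17.8% below.

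Erythroid transcripts were compared with those of the other populations. Their summed level was 2228 ± 29.1 CPM in WT MPP1 and 2029 ± 65.7 in WT MPP4-labelled cells, against 715 ± 18.1 in WT HSC and 814 ± 7.81 in WT MPP2-labelled cells (SD, n = 3). In KO-labelled libraries it was 474 ± 15.7 CPM in MPP1, 1084 ± 30.5 in MPP4-labelled, 691 ± 58.5 in HSC and 501 ± 3.55 in MPP2-labelled cells. KO-labelled MPP1 was thus under KO-labelled HSC, while WT MPP1 was above WT HSC. The difference between genotypes in MPP1 minus its mean over the other 3 populations, which share no library with MPP1, was called lower for 14 of the 28 erythroid genes and higher for 0. Over all genes that difference was called lower for 273 of 21964 (1.24%) and higher for 271 (1.23%), and after subtraction for 193 (1.02%) and 136 (0.722%). Epor had a difference of -3.85 (adjusted p = 0.000122), with a log2 fold change of 2.20 in HSC, 0.09 in MPP2-labelled and -0.24 in MPP4-labelled cells. For Gata1 it was -4.00 (adjusted p = 2.1e-05), with 2.33, 0.64 and 0.03. For Hbb-bs the log2 fold changes in HSC, MPP2-labelled and MPP4-labelled cells were -1.18, -0.75 and -1.36, and MPP1 departed from their mean by -1.88 (adjusted p = 1.88e-08). Car1 fell in all of these populations as well, by log2 fold changes of -2.46, -2.41 and -1.24 in the same order.

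Among genes of the granulocyte path, Mpo fell the most, while the list as a whole did not move one way. Mpo, the myeloperoxidase of neutrophil granules, had the smallest p of its direction: 144, 140 and 109 CPM in WT and 4.99, 5.99 and 4.36 in KO-labelled MPP1. Each WT library was far above each KO-labelled one, and the log2 fold change was -4.67 ± 0.18 (SE, n = 3 against 3, adjusted p = 1.08e-23). Ms4a3, a marker of granulocyte and monocyte progenitors, went from 7.31, 9.07 and 12.2 CPM to 1.66, 1.14 and 0.872 (-2.94 ± 0.49, adjusted p = 1.7e-05), and Elane, neutrophil elastase, chosen after its values were seen, from 6.43, 5.39 and 13.9 CPM to 0.665, 1.14 and 2.62 (-2.49 ± 0.50, adjusted p = 0.000345). Of the 23 listed granule and receptor genes tested, 4 fell (17.4%, against 4.9% of all genes), 2 rose (8.7%, against 8.71%) and 17 were not called, with a median of -0.16. The genes that rose were Calr, an endoplasmic reticulum chaperone (220, 218 and 206 CPM against 413, 453 and 440, 1.02 ± 0.08, adjusted p = 1.22e-12), and Hk3, the hexokinase of granulocytes (80.1, 67.5 and 58.7 CPM against 199.7, 211 and 165, 1.48 ± 0.18, adjusted p = 2.93e-08). After subtraction 2 rose and 5 fell. DESeq2 called 7 of the list lower, and 8 were lower among genes of at least 20 CPM. Of 11 genes of mature neutrophils tested, 0 were called in either direction by edgeR, 0 by DESeq2 and 0 at an unadjusted p below 0.05 in edgeR. Their summed level was 43.1 to 57.3 CPM in WT and 24.1 to 28.0 in KO-labelled libraries.

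The fall of Mpo set MPP1 apart from the other populations. Mpo was at 11.4 ± 4.18 CPM in WT HSC (SD, n = 3), 131 ± 19.4 in WT MPP1, 102 ± 4.995 in WT MPP4-labelled and 1518 ± 49.7 in WT MPP2-labelled cells. In KO-labelled libraries the levels in the same order were 4.98 ± 2.11, 5.11 ± 0.824, 284 ± 32.6 and 1565 ± 34.2 CPM, so that KO-labelled MPP1 and KO-labelled HSC did not differ beyond their spread. Mpo's log2 fold change was -1.19 in HSC, 0.04 in MPP2-labelled and 1.47 in MPP4-labelled cells. The difference of MPP1 from their mean, -4.78, had the smallest p of all genes (adjusted p = 5.22e-21). Ms4a3 differed likewise (-3.67, adjusted p = 3.22e-05).

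Lymphoid priming genes rose. Of 26 listed, 21 were tested, of which 15 rose (71.4%, against 8.71% of all genes), 0 fell and 6 were not called. The median log2 fold change was 0.83, against -0.10 for all tested genes. After subtraction 9 of 20 rose. The summed level was 3703 to 3848 CPM in WT and 5359 to 5588 in KO-labelled MPP1, without overlap. Leaving out any of the 6 libraries gave 13 to 15 rises.

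Ighm, the constant region of the immunoglobulin mu heavy chain, was at 21.6, 21.8 and 22.3 CPM in WT and 207, 241 and 223 in KO-labelled libraries. The spread within each group was small beside the gap, and the log2 fold change was 3.35 ± 0.13 (SE, n = 3 against 3, adjusted p = 2.87e-23). Dntt, the terminal transferase that adds bases at V(D)J junctions, rose from 33.0, 22.96 and 19.8 CPM to 144, 101 and 122 (2.27 ± 0.22, adjusted p = 1e-10). Il7r, the receptor for the cytokine that early lymphocytes need, was at 5.85, 1.70 and 5.29 CPM in WT, of which background would give 98.3%, and at 37.2, 47.1 and 43.3 in KO-labelled libraries (3.31 ± 0.38, adjusted p = 8.71e-09). WT MPP1 thus held no Il7r above background, and KO-labelled MPP1 did.

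Other members of the list rose less. Blnk, an adaptor of B-cell receptor signalling, went from 18.1, 21.8 and 25.3 CPM to 59.5, 66.2 and 84.3 (1.68 ± 0.24, adjusted p = 1.32e-06). Notch1, the receptor that drives T-cell commitment, chosen after its values were seen, rose from 81.8, 82.5 and 78.5 CPM to 197, 147 and 137 (0.98 ± 0.17, adjusted p = 5.53e-05). Satb1, a chromatin organiser of lymphoid cells chosen likewise, was not called (0.23 ± 0.15, adjusted p = 0.34). In the plot of list members, every called erythroid gene lies left of 0 and every called lymphoid priming gene right of it.

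**Figure D3:**
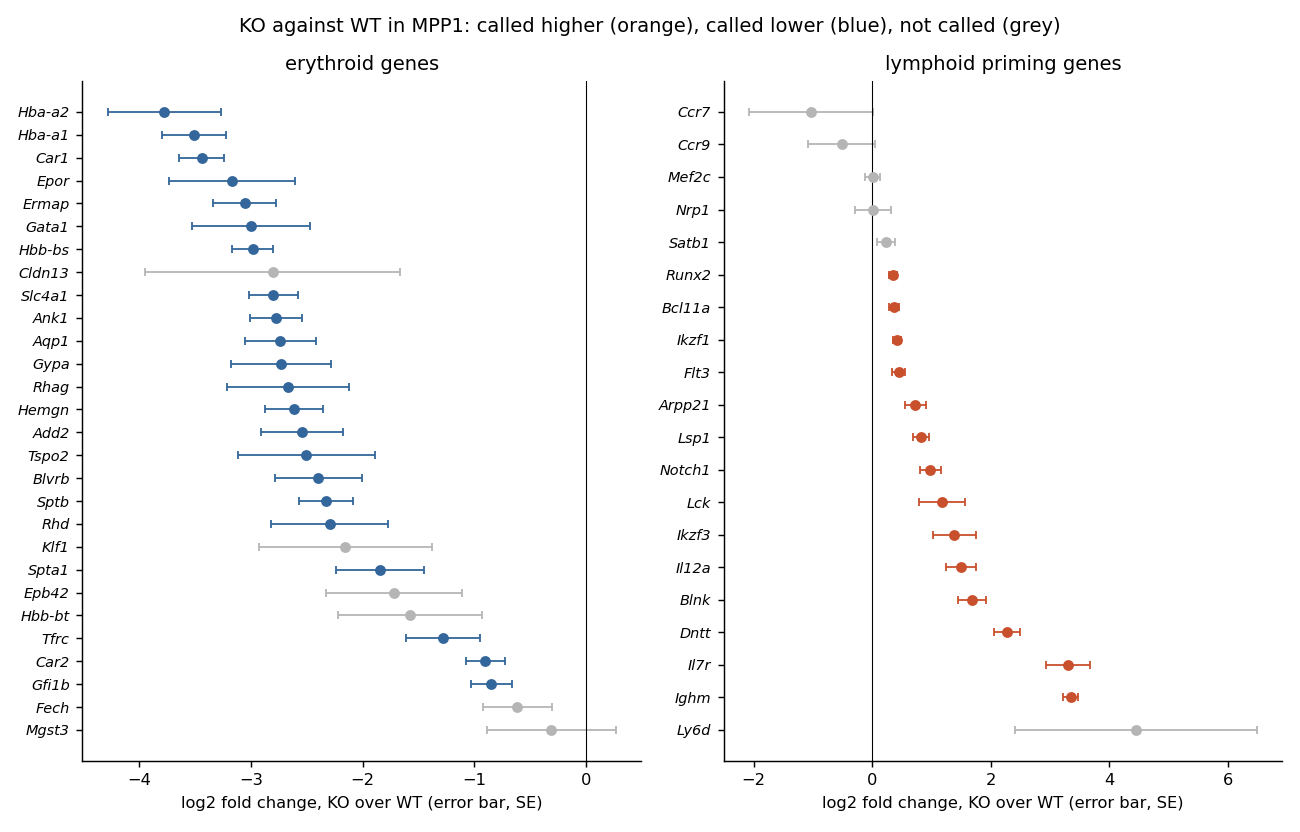
Log2 fold change of KO-labelled over WT MPP1 (horizontal axes; error bars, SE) for the 28 erythroid genes tested and 20 of the 21 lymphoid priming genes tested, in orange if called higher, blue if called lower and grey if not called. Erythroid falls reach -3.78 for Hba-a2, and lymphoid rises reach 3.35 for Ighm among called genes.

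Genes of committed B cells did not follow. Of 26 listed, 18 were tested, and 5 were at 0 in all 6 libraries. Blnk and Jchain rose (2 genes, 11.1%, against 8.71% of all genes), 0 fell and 16 were not called, with a median of -0.12. After subtraction 2 rose and 0 fell. The rise of Jchain was lost without KO-labelled replicate 3 (adjusted p = 0.118). Igkc, the kappa constant region, was at 0 in all 6. Cd79a, the signalling chain of the B-cell receptor, was at 0.877, 3.12 and 1.67 CPM in WT and 2.66, 2.00 and 0.872 in KO-labelled libraries. Pax5, the factor that commits cells to the B lineage, was at 27.8, 26.9 and 31.4 against 29.6, 24.3 and 21.8. Both overlapped between the groups. The WT count of Pax5 was no more than background gives there (111%). After subtraction its log2 fold change was 6.91 and was not called by edgeR (adjusted p = 0.079). The difference of MPP1 from the mean of the other populations was called higher for 3 of the 18 genes and lower for 0 (1.23% and 1.24% of all genes). Pax5 was among the 3, with log2 fold changes of -2.11, -1.13 and -1.62 in HSC, MPP2-labelled and MPP4-labelled cells. Igkc, Cd79a and Pax5 were chosen after their values were seen.

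Immunoglobulin V segments were described as families. Of 183 heavy chain V genes, 46 were tested, 2 were called higher (4.35%, against 8.71% of all genes) and 0 lower (2 lower without WT replicate 1). Ighv7-1 went from 0.877, 0.284 and 1.39 CPM to 136, 166 and 138, or 3, 1 and 5 counts to 410, 581 and 474, a log2 fold change of 7.36 ± 0.27 (adjusted p = 5.39e-24). The 3 KO-labelled libraries carried this same segment at close levels. Its log2 fold changes in HSC, MPP2-labelled and MPP4-labelled cells were 1.904, 4.325 and 7.351, so the rise was not particular to MPP1. Ighv11-2, the other one, was at 0.292, 0 and 1.39 CPM in WT and at 11.96, 23.7 and 16.9 in KO-labelled libraries. Of 160 kappa V genes, 33 were tested, 3 were called higher (9.09%, against 8.71% of all genes) and 0 lower. After subtraction 2 heavy chain and 2 kappa genes were called higher and 0 lower. Igkv14-126 had no count in WT, which allows up to 3 counts per library, and 20.6, 12.6 and 10.5 CPM in KO-labelled MPP1. The sum over heavy chain V genes was 52.8 ± 3.72 CPM in WT and 202 ± 18.9 in KO-labelled MPP1 (SD, n = 3), against 343 ± 23.3 and 5521 ± 154 in MPP2-labelled and 694 ± 62.5 and 809 ± 57.8 in MPP4-labelled cells. It was thus highest in MPP4-labelled cells among the WT groups and in MPP2-labelled cells among the KO-labelled groups. Reads of one segment can be counted for a near-identical one, so the names of single segments are uncertain. The segments were chosen after their values were seen.

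Ighm was also called higher in HSC and MPP2-labelled cells and Dntt in MPP4-labelled cells, while Il7r was called higher in no other population. The log2 fold changes of Ighm were 1.63 in HSC, 3.14 in MPP2-labelled and 0.25 in MPP4-labelled cells, against 3.35 in MPP1 (difference of 1.67, adjusted p = 2.88e-10). Those of Dntt were -2.03, -0.45 and 1.30 against 2.27 in MPP1 (difference of 2.67, adjusted p = 3.15e-09), and those of Il7r were -1.51, 0.55 and -1.24 against 3.31 (difference of 4.04, adjusted p = 2.35e-08). Il7r was at only 3.23 ± 1.20 CPM in WT HSC and 1.07 ± 1.10 in KO-labelled HSC (SD, n = 3). Background would account for 20.8% to 23.8% of the counts of WT HSC libraries and 5.45% to 5.83% of KO-labelled ones. The part of background in these differences was not tested. WT MPP2-labelled cells had the highest WT levels of Dntt, 565 ± 15.7 CPM, and of Il7r, 73.3 ± 8.42. KO-labelled MPP1, at 122 ± 21.3 and 42.5 ± 4.98 CPM, lay between WT MPP1 and WT MPP2-labelled cells for both. Of the 21 lymphoid priming genes tested, 8 had a difference called higher in MPP1 and 0 lower (1.23% and 1.24% of all genes).

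The largest rises by the rule for named genes were of varied function. They were Ccl9, Zfp469, Myl10, Ighm, Il7r, P2rx7, Chdh, Shisa7, Rnf128 and Il2ra. Ccl9, a CC chemokine of myeloid cells, was at 1.17, 1.70 and 1.11 CPM in WT and 39.5, 33.1 and 34.6 in KO-labelled libraries, a log2 fold change of 4.71 ± 0.56 (adjusted p = 2.79e-08). The WT value was mostly background (74.1%), and the KO-labelled libraries of HSC, MPP2-labelled and MPP4-labelled cells also had more, by 2.51, 2.29 and 2.39. P2rx7, an ATP-gated ion channel, rose from 29.5, 41.4 and 30.9 CPM to 268, 278 and 291 (3.04 ± 0.26, adjusted p = 3.96e-12), against 1.49, 0.45 and 0.50 in the other populations (difference of 2.23, adjusted p = 1.06e-06). Chdh, a mitochondrial choline dehydrogenase, rose from 11.7, 10.5 and 10.02 CPM to 69.1, 88.8 and 106 (3.04 ± 0.31, adjusted p = 7.45e-10). Zfp469, Myl10 and Shisa7 rose by 4.69 ± 0.88, 3.79 ± 0.66 and 2.75 ± 0.53 from WT means of which 55.9%, 57.7% and 58.9% were background.

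Il2ra, Rnf128, Il1rl1 and Gata3 rose in MPP1 and in MPP2-labelled cells and not in HSC or MPP4-labelled cells. Il2ra, the alpha chain of the interleukin 2 receptor, was at 10.5, 16.7 and 19.8 CPM in WT MPP1 and 93.4, 85.9 and 86.0 in KO-labelled MPP1 (2.49 ± 0.33, adjusted p = 2.5e-07), with log2 fold changes of -2.71, 3.28 and -0.62 in HSC, MPP2-labelled and MPP4-labelled cells. Il1rl1, the interleukin 33 receptor of mast cells and innate lymphoid cells, was at 32.1, 24.9 and 40.9 CPM against 184, 188 and 174 (2.48 ± 0.21, adjusted p = 7.3e-12), with -2.43, 3.94 and -1.41 elsewhere. Gata3, a factor of T cells and innate lymphoid cells, was at 23.4, 22.1 and 17.8 CPM against 76.4, 78.5 and 91.8 (1.96 ± 0.27, adjusted p = 6.05e-07), with -0.34, 2.31 and -0.42 elsewhere. Rnf128, a ubiquitin ligase of T-cell anergy, was at 13.2, 21.5 and 10.3 CPM, no more than background gives (126%), against 98.4, 95.3 and 88.6 (2.65 ± 0.32, adjusted p = 2.87e-08), with -0.64, 4.76 and -1.15 elsewhere. The difference of MPP1 from the mean of the other 3 populations was called for each of these 4 genes, from 1.44 (Gata3, adjusted p = 0.00401) to 2.51 (Il2ra, adjusted p = 4.68e-05).

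**Figure D4:**
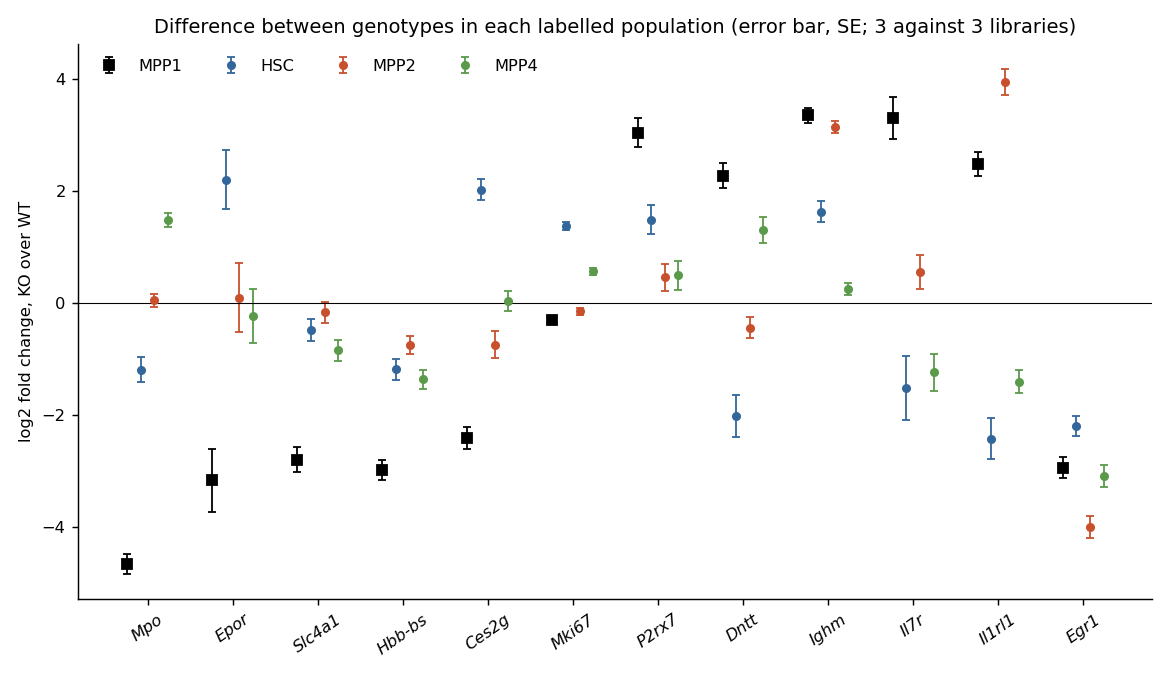
Log2 fold change of KO-labelled over WT libraries (vertical axis; error bars, SE; 3 against 3 libraries) in MPP1 (black squares), HSC, MPP2-labelled and MPP4-labelled cells (coloured points) for 12 genes. Mpo is at -4.67 in MPP1 and 1.47 in MPP4-labelled cells, Il1rl1 is up in MPP1 and MPP2-labelled cells, and Egr1 is low in all 4 populations.

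T cell, natural killer and innate lymphoid genes as a list were mixed. Of 20 tested, 5 rose (25%, against 8.71% of all genes), 1 fell (5%, against 4.9%) and 14 were not called. The median was 0.51, and 2 rose and 1 fell after subtraction. Gata3 and Cd247, a signalling chain of the T-cell receptor (0.90 ± 0.17, adjusted p = 8.69e-05), rose in both counts. Tcf7 was called higher (1.74 ± 0.46, adjusted p = 0.0071). After subtraction its log2 fold change was 2.79 and was not called (adjusted p = 0.0843), nor was it without WT replicate 2 (0.0889). Cd3e, Trbc2 and Thy1, which T cells carry, were chosen after their values were seen. The defining chain Cd3e was at 4.68, 7.09 and 1.67 CPM in WT and 1.66, 1.43 and 0.872 in KO-labelled libraries, and was not called (adjusted p = 0.425). The receptor chain Trbc2 was at 0.585, 0 and 0 CPM against 1.66, 3.14 and 6.68 and was called higher (4.08 ± 1.37, adjusted p = 0.0397), and Thy1 at 3.51, 0.567 and 3.34 against 5.98, 14.8 and 10.2 (2.05 ± 0.57, adjusted p = 0.0102). Neither was called after subtraction (adjusted p = 0.188 and 0.129). The rises without WT replicate 2 numbered 2, and without KO-labelled replicate 2 they numbered 3. Without KO-labelled replicate 3 no member fell.

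The largest falls by the same rule were Iqcn, Mpo, Hba-a2, Btnl10, Jun, Hba-a1, Car1, Acsl6, Epor and Ermap, of which Hba-a2, Hba-a1, Car1, Epor and Ermap were erythroid list members. Btnl10, a butyrophilin-like gene, was at 78.6, 49.3 and 73.2 CPM in WT and 3.65, 5.71 and 5.23 in KO-labelled libraries (-3.77 ± 0.47, adjusted p = 6.21e-08). Iqcn, which encodes an IQ motif protein, was at 30.1, 27.5 and 40.6 CPM against 0, 2.00 and 1.16 (-4.86 ± 0.74, adjusted p = 4.01e-06). Acsl6, an acyl-CoA synthetase of red cells and brain, was at 26.6, 31.8 and 22.3 CPM against 2.33, 4.57 and 1.16 (-3.30 ± 0.60, adjusted p = 6.87e-05). The rule itself required that the groups not overlap.

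By the smallest p for a difference from the other populations, Mpo, Ighm, Mki67, Runx1, Auts2, Ces2g, Cux1 and Prkg1 stood out. Ces2g, a carboxylesterase, was at 143, 129 and 152 CPM in WT MPP1 and 29.9, 24.5 and 25.0 in KO-labelled MPP1 (-2.42 ± 0.20, adjusted p = 1.03e-12), while its log2 fold change was 2.02 in HSC, -0.75 in MPP2-labelled and 0.03 in MPP4-labelled cells (difference of -2.85, adjusted p = 5.16e-12). Prkg1, the cyclic GMP-dependent kinase, fell from 1176, 1289 and 1243 CPM to 319, 374 and 412 (-1.75 ± 0.08, adjusted p = 3.23e-21), against 0.46, -2.19 and -0.61 (difference of -0.97, adjusted p = 2.6e-10). Auts2, a regulator of transcription named for a locus in autism, fell from 430, 431 and 438 CPM to 286, 281 and 288 (-0.60 ± 0.07, adjusted p = 5.81e-08), against rises of 0.42, 0.39 and 1.71 (difference of -1.44, adjusted p = 2.86e-16). Background would give 44.0% of the WT count of this long gene. Cux1, a homeodomain factor, rose from 643, 626 and 639 CPM to 2103, 2299 and 2106 (1.77 ± 0.07, adjusted p = 1.49e-23), against 1.79, 0.44 and 0.51 (difference of 0.86, adjusted p = 1.48e-10).

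Among 46 lineage transcription factors tested, 18 rose (39.1%, against 8.71% of all genes), 5 fell (10.9%, against 4.9%) and 23 were not called. The median was 0.23. After subtraction 7 rose and 7 fell, and falls numbered 8 to 10 with median-of-ratios size factors, DESeq2, only the 6 libraries or at least 20 CPM. Runx1, a regulator of definitive blood formation, fell from 2398, 2498 and 2283 CPM to 1469, 1470.0 and 1588 (-0.67 ± 0.05, adjusted p = 2.12e-13). Its log2 fold change was 0.50 in HSC, -0.58 in MPP2-labelled and -0.02 in MPP4-labelled cells (difference of -0.63, adjusted p = 2.88e-10). Mecom, which sustains stem cells, rose from 2058, 2108 and 1941 CPM to 3161, 2980.0 and 2860.0 (0.56 ± 0.06, adjusted p = 2.26e-09) and Hlf, a stem cell factor, by 0.52 ± 0.06 (adjusted p = 2.07e-08). Mecom rose less in MPP1 than on average elsewhere (difference of -0.47, adjusted p = 1.46e-05). Nfe2, a factor of megakaryocytes and erythroid cells, rose from 137, 148 and 116 CPM to 316, 317 and 335 (1.27 ± 0.14, adjusted p = 2.04e-09), opposite in direction to Gata1 and the globins. Gata2 was called higher (0.74 ± 0.17) and not after subtraction (adjusted p = 0.225).

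In the list of stem cell genes, 5 of 23 tested rose (21.7%, against 8.71% of all genes) and 3 fell (13%, against 4.9%). The median was -0.04. After subtraction 2 rose and 5 fell, and 10 fell when only genes of at least 20 CPM were fitted. Hlf and Mecom rose, and Tek, the angiopoietin receptor, fell from 41.2, 40.0 and 49.5 CPM to 16.9, 11.99 and 21.8 (-1.36 ± 0.26, adjusted p = 0.000172). Without WT replicate 3 the rises numbered 3. Of 17 megakaryocyte and platelet genes, 3 rose and 3 fell (17.6% each, against 8.71% and 4.9% of all genes), with a median of -0.41. After subtraction 2 rose and 1 fell, and DESeq2 called 5 lower. Plek, a platelet signalling protein, fell from 126, 91.3 and 119 CPM to 32.2, 46.5 and 21.5 (-1.74 ± 0.19, adjusted p = 1.99e-09), and Selp, P-selectin, rose from 4.68, 7.94 and 9.18 CPM to 25.9, 25.4 and 21.8 (1.74 ± 0.38, adjusted p = 0.00102). Pf4, which defines platelets and was chosen after its values were seen, was at 0.292, 0 and 1.67 CPM in WT and 0, 0.285 and 0 in KO-labelled libraries.

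Immediate early genes, which are transcribed within minutes of a stimulus and also during cell isolation, were lower in part. Of 37 tested, 14 fell (37.8%, against 4.9% of all genes), 3 rose (8.11%, against 8.71%) and 20 were not called. The median was -1.04, and the counts were 14 and 3 after subtraction as well. Leaving out any library gave 12 to 14 falls. Jun, a subunit of AP-1, was at 99.7, 105 and 82.9 CPM in WT and 5.32, 7.99 and 7.85 in KO-labelled libraries (-3.75 ± 0.31, adjusted p = 1.38e-12). Egr1, a zinc finger factor, was at 276, 283 and 299 CPM against 30.9, 48.5 and 31.4 (-2.95 ± 0.19, adjusted p = 4.91e-16), and Fosb, another AP-1 subunit, at 349, 405 and 348 against 108, 89.3 and 119 (-1.80 ± 0.13, adjusted p = 5.14e-14). The groups were far apart for all 3 genes. Myc, the growth regulator, went the other way, from 98.2, 97.5 and 110 CPM to 329, 322 and 313 (1.66 ± 0.12, adjusted p = 8.76e-14). The same direction was found in every population for Jun (-3.21, -2.77 and -2.64 in HSC, MPP2-labelled and MPP4-labelled cells) and Egr1 (-2.20, -4.00 and -3.09). The difference of MPP1 from their mean was called lower for 0 of the 37 genes and higher for 1 (1.24% and 1.23% of all genes). The cyclic AMP response element TGACGTCA, searched on both strands in the 250 bases upstream, was in 2 of 13 matched promoters of the fallen genes (Btg2 and Dusp1) and in 1.77% of all.

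Some genes of cell division were lower. Of 29 genes of G2 and mitosis tested, 6 fell (20.7%, against 4.9% of all genes), 0 rose and 23 were not called, with a median of -0.30. After subtraction 6 fell, and 11 did among genes of at least 20 CPM. Mki67, a marker of cycling cells, was at 704, 666 and 710 CPM in WT and 552, 551 and 588 in KO-labelled libraries (-0.30 ± 0.07, adjusted p = 0.00105). Ccna2, cyclin A2, was at 43.0, 49.0 and 28.1 CPM against 21.3, 16.8 and 17.1 (-1.12 ± 0.24, adjusted p = 0.000916). In the other populations Mki67 had log2 fold changes of 1.37 in HSC, -0.15 in MPP2-labelled and 0.56 in MPP4-labelled cells. MPP2-labelled cells thus had the direction of MPP1, though without a call (adjusted p = 0.153). The difference of MPP1 from the mean of the other populations was -0.89 (adjusted p = 3.98e-11). That difference was called lower for 10 of the 29 genes and higher for 0 (1.24% and 1.23% of all genes). Of 33 S phase genes, 2 fell (6.06%, against 4.9% of all genes) and 0 rose, with a median of -0.01, and 4 fell after subtraction. Both falls, of Cdc6 and Clspn, were lost without WT replicate 1 (adjusted p = 0.0691 and 0.158), without which no member was called. Without KO-labelled replicate 1, 2 or 3 there was 1. The difference from the other populations was called lower for 8 of the 33 and higher for 0 (1.24% and 1.23% of all genes). KO-labelled HSC were at 1208 CPM of Mki67 and KO-labelled MPP1 at 564, whereas WT HSC were at 467 and WT MPP1 at 693.

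Metabolic genes rose in part. Of 27 genes of cholesterol synthesis and uptake, 9 rose (33.3%, against 8.71% of all genes), 0 fell and 18 were not called. The median was 0.69, and 5 rose after subtraction. Srebf2, the transcription factor of the pathway, rose from 264, 213 and 229 CPM to 402, 406 and 440 (0.82 ± 0.10, adjusted p = 3.65e-08) and Scap, which carries it to the Golgi, from 107, 103 and 93.2 to 179, 196 and 195 (0.91 ± 0.13, adjusted p = 1.29e-06). The enzyme Sqle, squalene epoxidase, rose by 1.53 ± 0.23 (adjusted p = 2.26e-06). Without WT replicate 2 the rises numbered 5.

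Of 28 genes of glycolysis and the hypoxia response, 10 rose (35.7%, against 8.71% of all genes), 0 fell and 18 were not called. The median was 0.59. After subtraction 3 rose, Gpi1, Pkm and Gapdh. Pkm, pyruvate kinase, was at 59.6, 52.4 and 71.8 CPM in WT and 147, 152 and 141 in KO-labelled libraries (1.26 ± 0.15, adjusted p = 3.63e-08), and Gpi1, glucose phosphate isomerase, at 195, 197 and 155 against 330, 341 and 384 (0.95 ± 0.10, adjusted p = 1.45e-09). Gapdh rose by 0.74 ± 0.10 (adjusted p = 1.64e-07). The rises of the list numbered 5 with median-of-ratios size factors, without WT replicate 3 or without KO-labelled replicate 2, 6 without WT replicate 1, and 4 among genes of at least 20 CPM. Of 51 nuclear genes of oxidative phosphorylation, 1 rose and 0 fell (Sdhc, lost after subtraction with an adjusted p of 0.0793), with a median of 0.12, and 2 rose without WT replicate 3. Of 71 cytosolic ribosomal protein genes, 6 fell (8.45%, against 4.9% of all genes) and 0 rose, with a median of -0.16. The 6 falls were all among the 56 members with a mean of at least 20 CPM in either genotype. Of the 11108 genes that passed the 20 CPM filter, 1113 were called lower with the scaling of all genes kept. Rpl21 fell from 61.4, 64.6 and 80.4 CPM to 30.2, 35.1 and 35.5 (-1.03 ± 0.23, adjusted p = 0.00111) and Rpl10 by 0.73 ± 0.17 (adjusted p = 0.00223). The number of falls in this list was 20 after subtraction, 19 among genes of at least 20 CPM, and 3 with the first WT or the second or the third KO-labelled library left out. Ribosomal protein genes have many near-identical pseudogenes, so their counts are uncertain.

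Part of the genes of the type I interferon response and of antigen presentation rose. Of 38 interferon genes tested, 12 rose (31.6%, against 8.71% of all genes), 0 fell and 26 were not called. The median was 0.44, and 5 rose after subtraction (7 among genes of at least 20 CPM). Without KO-labelled replicate 1 there was 1 fall. Oas2, which makes the activator of RNase L, was at 146, 147 and 141 CPM in WT and 421, 438 and 419 in KO-labelled libraries (1.55 ± 0.16, adjusted p = 9.47e-10). Oasl2, a related gene, rose by 1.02 ± 0.15 (adjusted p = 1.79e-06) and Lgals3bp, a secreted lectin partner, from 155, 144 and 122 CPM to 276, 295 and 341 (1.11 ± 0.11, adjusted p = 4.43e-10). Oas genes are alike in sequence, and their counts may be shared. Oas2 rose in HSC (1.78) and MPP4-labelled cells (1.02) and stood at -0.45 in MPP2-labelled cells (difference of 0.77, adjusted p = 0.0118).

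Of 18 genes of antigen presentation, 10 rose (55.6%, against 8.71% of all genes) and 1 fell (5.56%, against 4.9%). The median was 0.53, and 5 rose and 1 fell after subtraction. Tap2, which carries peptides to class I molecules, rose from 68.4, 84.5 and 77.4 CPM to 181, 170 and 222 (1.31 ± 0.17, adjusted p = 2.19e-07) and the class I gene H2-D1 from 236, 192 and 184 to 336, 327 and 325 (0.69 ± 0.11, adjusted p = 6.39e-06). H2-Q7 rose by 1.79 ± 0.30 (adjusted p = 2.62e-05), with near-identical neighbours among which reads may be split. Nlrc5, the activator of class I genes, was called higher (0.62 ± 0.10) and not after subtraction (adjusted p = 0.0591). Cd74, the invariant chain of class II molecules, was the gene that fell, from 40.3, 40.0 and 36.2 CPM to 10.3, 7.42 and 20.9 (-1.59 ± 0.39, adjusted p = 0.00333). The class I components that were called all rose, and Cd74 was the only class II component called. H2-Aa, a class II chain chosen after its values were seen, stood at -1.44 ± 0.62 (adjusted p = 0.122).

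Partners of Ddx6 in mRNA storage and decay were higher in part. Of 37 P-body and decay genes tested, 12 rose (32.4%, against 8.71% of all genes), 1 fell (2.7%, against 4.9%) and 24 were not called. The median was 0.39, and 5 rose and 1 fell after subtraction. Mex3a, an RNA-binding protein of progenitor cells, had the largest rise among the named ones, from 47.4, 52.7 and 45.1 CPM to 169.5, 159 and 161 (1.75 ± 0.19, adjusted p = 2.35e-09). Tnrc6b, a scaffold of microRNA silencing, rose from 530.2, 527 and 518 CPM to 717, 738 and 767 (0.50 ± 0.08, adjusted p = 4.19e-06) and Cnot6l, a deadenylase of the CCR4-NOT complex, by 0.60 ± 0.11 (adjusted p = 8.33e-05). Zfp36, which targets AU-rich mRNAs for decay and is also an immediate early gene, was the member that fell (-1.25 ± 0.29, adjusted p = 0.00151), and was chosen after its values were seen.

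The remaining lists of other cell types were counted as checks of what the gates held. Of 14 mast cell, basophil and eosinophil genes, 2 rose (Il1rl1 and Gata2) and 1 fell (Epx), and only the rise of Il1rl1 was also called after subtraction. Epx, eosinophil peroxidase, lost its call when any of the 6 libraries was left out (adjusted p of 0.0542 to 0.121). Of 22 genes of monocytes, macrophages and dendritic cells, 2 rose and 2 fell, and 0 and 1 after subtraction. Flt3 and Cd74, described above, were among these. Of the others, Cd68 lost its call without any of the 6 libraries (adjusted p of 0.0747 to 0.133), and Mrc1 lost its own after subtraction (0.615) and without each library other than KO-labelled replicate 1 (0.0782 to 0.282). Of 18 stromal and endothelial genes, 2 rose (Runx2 and Pecam1, both also expressed by blood progenitors) and 0 fell, and neither was called after subtraction (adjusted p = 0.798 and 0.544). Pecam1 also lost its call with the first WT, the second KO-labelled or the third KO-labelled library left out (0.073, 0.132 and 0.0592). Of 18 chemokines and receptors, 2 rose (Ccl9 and Cxcr4) and 1 fell (Ccl22, at no count in KO-labelled libraries), and 1 and 0 after subtraction. Cxcr4 and Ccl22 lost their calls without several libraries, with adjusted p values up to 0.38 and 0.106. Over all genes 8.71% were called higher and 4.9% lower, and the plot of gene lists sets the shares of the lists beside these. Abundant genes were called more often. With the 20 CPM filter and the scaling of all genes kept, 2242 of 11108 genes were called higher and 1113 lower. The shares of all genes are thus not matched to the level of a list's members.

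**Figure D5:**
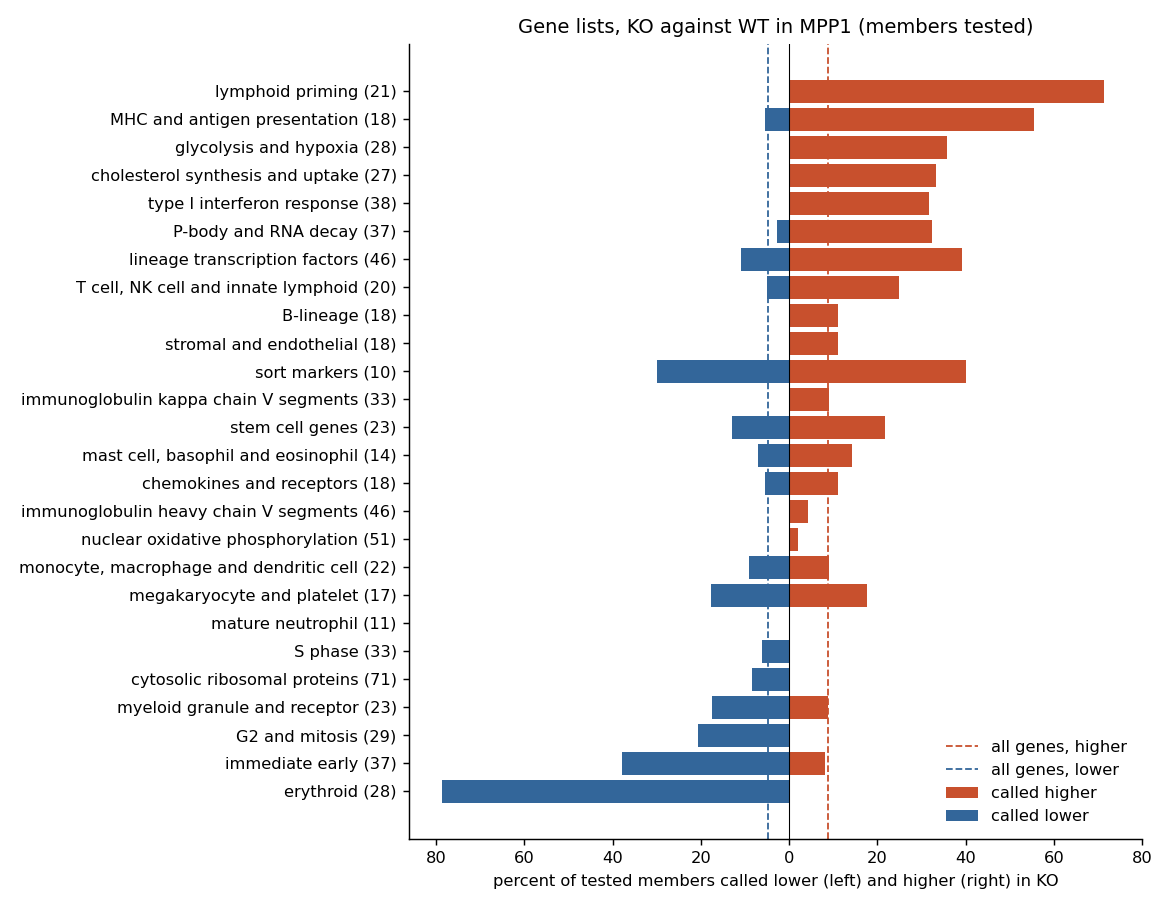
Percent of the tested members of each list (number in brackets) called lower (left, blue) or higher (right, orange) in KO-labelled MPP1, with dashed lines at the shares of all 21964 genes, 4.9% lower and 8.71% higher. The erythroid list reaches 78.6% lower and the lymphoid priming list 71.4% higher.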

How the data were processed

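RNA was sequenced from 24 libraries, and the authors deposited 1 table of raw counts, whole numbers of reads for each gene. The submitters' processing notes name mm39, SAMtools 1.12 and DESeq2 without saying what each did. Aligner, counter, annotation and strandedness are not given in the sources used here, so reads of antisense and overlapping genes cannot be told apart. Columns were matched to samples by the description field, and groups and replicate numbers came from the titles.

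Of 56748 genes, 21964 passed edgeR's filterByExpr on the 8 groups. Counts were scaled by the trimmed mean of M-values, and edgeR 4.0.16 (R 4.3.3) fitted all 24 libraries in 1 quasi-likelihood model, 1 mean for each group (residual degrees of freedom, 16; common coefficient of biological variation, 0.393). The contrasts were KO-labelled against WT in MPP1, and that difference minus its mean over HSC, MPP2-labelled and MPP4-labelled cells. P-values were adjusted by Benjamini-Hochberg over all genes tested, with calls at an adjusted p below 0.05. The SE is the size of the log2 fold change divided by the root of the F statistic. Expression levels are given as CPM, on scaled totals.

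Background was the count density per kb of gene span over 1770 olfactory and vomeronasal receptor genes in each library. Multiplied by each gene's span, it was subtracted, rounded and set to at least 0 before a second fit of 18832 genes. Spans were read from a GRCm38 annotation, older than the authors' build, which held 52125 of the identifiers (91.9%). Of the genes, 959 have a name that another gene also has.

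Members and the 24 gene lists were chosen with earlier results of these data known. Named genes were Ddx6, Mpo, Car1, Hbb-bs, Ighm, Dntt and Il7r; up to 10 largest rises and 10 largest falls among called genes of at least 20 CPM in the higher group, with a count in the lower group, no overlap and the same call after subtraction (predicted genes and receptor segments passed over); up to 4 called members of each list with the smallest p; the 8 smallest p for the difference from the other populations; and the sorting genes. Some genes that the rule names are not reported here. The text marks any other gene as picked with its values in view. Globins and immunoglobulin V segments were taken as families by name.

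Replicate libraries were not copies of each other (chi-square per gene of 4.46 to 7.41). On simulated data over 21964 genes for this contrast, 7 of 100 genes changed 1.5-fold and 40 of 100 changed 3-fold were recovered (7 of 33 and 28 of 32 at 20 CPM or more), with 1 false call. As alternatives, median-of-ratios scaling, no low-count filter, a filter of 20 CPM in 3 libraries, DESeq2 1.42.0, only the 6 libraries, the replicate number as a block, background subtraction, each library left out and, chosen after seeing the data, the 20 CPM filter with the scaling of all genes were tried.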

Additional observations from a re-analysis of the deposited data

Results flagged for a closer look

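For 37 of the named genes reported here the difference between genotypes in MPP1 departed from its mean over HSC, MPP2-labelled and MPP4-labelled cells, by edgeR's quasi-likelihood test of that difference at an adjusted p below 0.05 (n = 3 against 3 libraries in each population). Mpo, Ighm, Mki67, Runx1, Auts2, Ces2g, Cux1 and Prkg1 were named for the smallest p of this same test, and others for large changes in MPP1. The count is thus in part set by the choice of genes. Over all genes tested, 1.23% were called for a higher and 1.24% for a lower departure. The values in brackets are that departure on the log2 scale, MPP1 minus the mean of the others. It was negative for the granulocyte genes Mpo (-4.78) and Ms4a3 (-3.67). It was negative for the red cell genes Epor (-3.85), Slc4a1 (-2.30), Hba-a2 (-2.27), Hba-a1 (-1.97), Hbb-bs (-1.88), Car1 (-1.40) and Ermap (-1.21), and for Btnl10, which is in no list (-2.55). It was negative for the cell division genes Ccna2 (-2.11), Hmmr (-1.80), Cdc6 (-1.51), Clspn (-1.43), Plk1 (-1.28) and Mki67 (-0.89). The other negative values were those of Ces2g (-2.85), Auts2 (-1.44), Prkg1 (-0.97), Rps2 (-0.84), Runx1 (-0.63) and Mecom (-0.47). It was positive for the lymphoid genes Il7r (4.04), Dntt (2.67), Blnk (2.10), Ighm (1.67) and Flt3 (1.02), and for the receptor, ligase and transcription factor genes Il2ra (2.51), Il1rl1 (2.44), Rnf128 (1.66) and Gata3 (1.44). The other positive values were those of Zfp469 (3.51), Ccl9 (2.31), P2rx7 (2.23), Chdh (1.52), Cux1 (0.86) and Oas2 (0.77). A departure from the mean does not make a change particular to MPP1. Car1 fell in HSC, MPP2-labelled and MPP4-labelled cells too (-2.46, -2.41 and -1.24, against -3.44 in MPP1). So did Ermap (-2.76, -1.30 and -1.49, against -3.06). Cux1 and Oas2 rose in HSC by 1.79 and 1.78, against 1.77 and 1.55 in MPP1. In MPP2-labelled cells Rnf128, Il1rl1, Il2ra and Gata3 rose by 4.76, 3.94, 3.28 and 2.31, against 2.65, 2.48, 2.49 and 1.96 in MPP1. Prkg1 stood at -2.19 in MPP2-labelled cells and at -1.75 in MPP1.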

How the results depend on the processing

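The count of genes called higher, 1912, was 1109 among genes of at least 20 CPM and 629 after background subtraction, and 1409 to 1558 with 1 library left out. The count called lower, 1076, was 1795 among genes of at least 20 CPM, 1711 with DESeq2, 1866 with only the 6 libraries, 507 after subtraction, and 662 (without WT replicate 2) to 774 with 1 library left out. For the departure from the other populations, the 271 higher became 484 with DESeq2, 136 after subtraction and 139 (without WT replicate 3) to 192 with 1 library left out, and the 273 lower became 186 to 208. The count of 271 also fell to 151 without WT replicate 1, 141 without WT replicate 2 and 176 without KO-labelled replicate 2. With the filter of 20 CPM the scaling was estimated anew on the 11108 genes kept, which moved the fold changes by a median of -0.223 on the log2 scale; with the scaling of all genes kept, an alternative chosen after seeing the data, the counts were 2242 and 1113. Subtraction moved the fold changes by -0.229. The cause of the other changes was not tested. Only the 6 libraries cannot give that departure, which was not run there. Labels share replicate numbers between genotypes, and deviations of same-numbered libraries correlated at 0.013, -0.003 and 0.001 over 8491 genes. These values showed no pairing by number, but they cannot tell if same-numbered libraries shared a preparation. With the replicate number as a block the counts were 1897, 1063, 266 and 269, and of 98 named genes the call of Cd34 alone was lost (-0.54, adjusted p = 0.0531). With 1 library left out Slamf1 ranged from -1.593 (without KO-labelled replicate 1, called, adjusted p = 0.048) to 0.044 (without WT replicate 2, not called). No other named gene reversed under any alternative. With 1 library left out, 6 to 13 of the named genes lost their calls, and 18 did after subtraction. In simulation a 1.5-fold change was seldom recovered (7 of 100). Only 100 genes were changed at each fold there, far fewer than were called in the data, which makes the adjusted p stricter. Depth was not varied, and recovery at the number of changes in the data was not tested.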
